A study of Drosophila melanogaster with 12 samples.

Results

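The genes described here are 49 of the 17617 genes in the deposited files. Each has only a CG-numbered symbol, the systematic label that Drosophila genes keep until they are given a name. They were chosen by m, the log2 of a group's mean value plus 2: m was at least 1 higher under DSS than under sucrose in the control genotype, at least 1 lower under DSS than under sucrose in trxRNAi, and the highest group mean was at least 20. Among the 6053 CG-numbered genes 55 met these limits, and 6 of them (CG16826, CG34212, CG45080, CG13947, CG43680 and CG33109) were left out by the rule. The same limits were met by 142 genes with other symbols, which makes 197 genes in all. The opposite pattern, lower in control DSS and trxRNAi sucrose, was held by 73 genes, of which 21 were CG-numbered.

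The libraries were made from progenitor cells of adult female midguts, sorted by green fluorescence. All groups carried esgtsGFP, a temperature-sensitive driver with a green reporter that is active in cells expressing escargot, and were crossed either to w1118 (control) or to UAS-trxRNAi (BDSC#33703), an RNA interference line against trithorax. Mated females aged 3 to 4 days were moved to 29 °C for 7 days, and in the last 48 h they were fed 5% sucrose or 3% DSS (dextran sulfate sodium), which injures the lining of the gut. The 4 groups of 3 libraries are control sucrose, control DSS, trxRNAi sucrose and trxRNAi DSS; RNA was read from the 3′ ends of transcripts. The knockdown rests on 1 RNAi line and the control carries no hairpin, and the labels do not say whether the libraries came from separate sets of flies, so p-values measure the spread between these libraries only.

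The midgut epithelium is renewed by intestinal stem cells, whose daughters become enteroblasts and then absorbing enterocytes, or hormone-secreting enteroendocrine cells. Trithorax is a histone methyltransferase that keeps active genes on, and Ptx1 is a homeobox factor with regional expression along the midgut. The members have little published biology: their proteins are known mainly from sequence families, and the sources used here do not place them in a gut region.

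Judged from the low values in each library, the deposited values are read counts that were multiplied by 1 factor per library and rounded. They total between 5362337 and 6520981 per library over 17617 genes. The estimated factors imply 4432323 to 7234917 reads. The lowest of these is for control DSS replicate 2, whose factor fitted least well. The target trx had 1114, 1217 and 1313 in control sucrose, 841, 1041 and 652 in control DSS, 668, 667 and 448 in trxRNAi sucrose and 715, 758 and 808 in trxRNAi DSS. The trx value was lower in trxRNAi under sucrose by limma (log2 difference −1.05 ± 0.19 SE, adjusted p = 0.00356), while under DSS the groups overlapped (−0.13, adjusted p = 0.772), so both DSS groups are named only as labelled. The groups in which the members are high do not both stand in the middle of the trx order, where trxRNAi sucrose had the lowest mean (594.3) and control DSS the second highest (844.7). For Ptx1 they had the lowest means, 11.67 in trxRNAi sucrose and 53.67 in control DSS against 110.7 in trxRNAi DSS and 185.3 in control sucrose. The members are therefore called by those groups, as genes high in control DSS and trxRNAi sucrose. Stem cell and enteroblast markers were present in every library, with sums over 6 genes between 3759 and 6002, beside markers of other cells. Sums over 8 hemocyte genes were 918 to 1145 in control sucrose, 512 to 674 in control DSS, 597 to 606 in trxRNAi sucrose and 1145 to 1272 in trxRNAi DSS, with He and eater at 0 in all libraries. These sums were lower in the groups where the members are high. Only 1 of the 8 genes had at least 10 in at least 3 libraries, so the sums rest largely on that gene. Sums over 10 visceral muscle genes ran from 4555 in control DSS replicate 1 to 11678 in trxRNAi sucrose replicate 2. Sums over 16 enterocyte markers were 3587 to 10914 in control sucrose and 4172 to 10768 in control DSS. In trxRNAi sucrose the enterocyte sums were 3337 to 5903 and in trxRNAi DSS 3566 to 4071. The part of such cells in the members' values was not tested. In sorted bulk cells, fewer cells of a type and less RNA per cell cannot be told apart.

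Most members were low genes. The highest group mean had a median of 57.67 and ran from 20.67 (CG32204) to 1071 (CG7142); it was at least 100 in 15 members and under 50 in 22. The highest of the 4 means was in control DSS for 32 members and in trxRNAi sucrose for 17. The lowest was in trxRNAi DSS for 29 members and in control sucrose for 17, and in the other 3 (CG13135, CG31221 and CG32198) the low groups were tied. The difference that the rule used in control, DSS minus sucrose, had a median of 1.52 and a highest value of 4.80, and that in trxRNAi a median of −1.70 and a lowest value of −5.10; both extremes belonged to CG44142. These values chose the members and are given without a test.

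**Figure D1:**
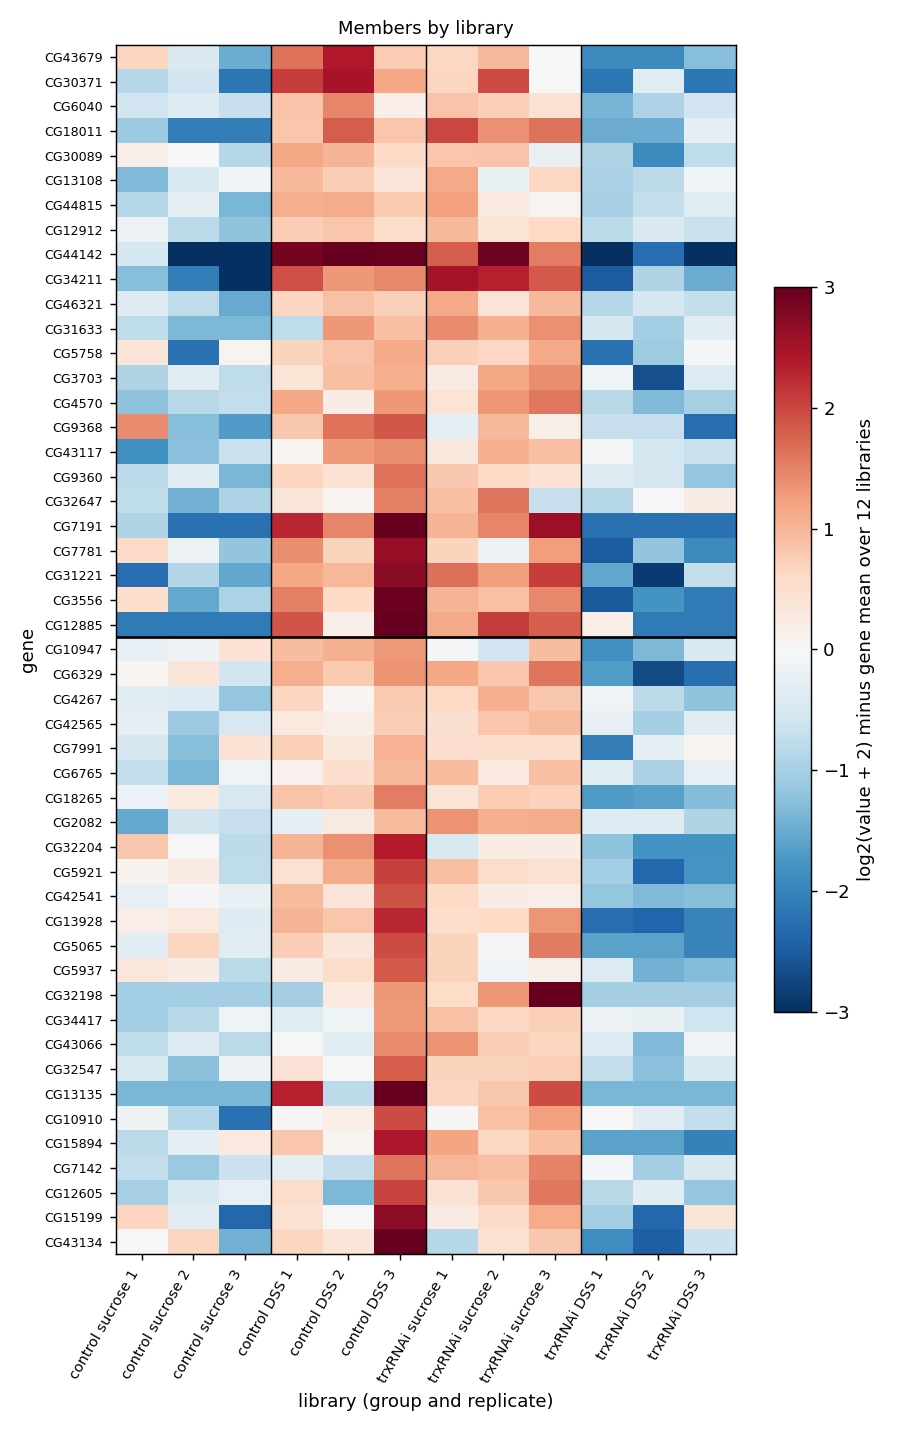
Each row is a member and each column a library; colour is log2 (value + 2) minus the gene's mean over 12 libraries, and colours stop at 3 above and below it. Rows above the thick line are the 24 members that meet the rule without control DSS replicate 3 and rows below it the 25 that do not, and in both blocks the rows are ordered by the ratio of that library to the mean of the other 2 control DSS libraries.

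The groups were not apart in all members. Of the 48 members that passed the filter on low values (at least 10 in at least 3 libraries), 37 had every control DSS library above every control sucrose library, beside 7.97% of all tested genes. In trxRNAi, 43 had every sucrose library above every DSS library, beside 11.4% of all tested genes. All 6 libraries of the high groups stood above all 6 of the low groups in 28, beside 2.42% of all tested genes. The limma feed differences were called at an adjusted p under 0.05 in 21 members for control (1.73% of all genes higher under DSS), in 25 for trxRNAi (2.58% of all genes lower under DSS) and in 16 for both (1.19%). Nothing can be read from these counts, since the rule used both contrasts. The member that did not pass the filter, CG32198, was listed at 0 in all 6 libraries of the low groups, had 0, 3 and 8 in control DSS and 4, 8 and 54 in trxRNAi sucrose, and so rests on 1 library.

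CG7142, a serine protease of the trypsin type that RefSeq also lists as SP132, was the member with the highest value. It had 286, 221 and 309 in control sucrose, 399, 291 and 1474 in control DSS, 961, 897 and 1354 in trxRNAi sucrose and 473, 235 and 350 in trxRNAi DSS. Both trxRNAi groups were apart, but 1 control DSS library lay within the control sucrose range, and the control DSS mean (721.3 ± 654.1 SD, n = 3) rested on replicate 3. CG30371, a further serine protease (SP80), was far lower: 3, 4 and 0 in control sucrose, 36, 48 and 18 in control DSS, 12, 33 and 7 in trxRNAi sucrose and 0, 5 and 0 in trxRNAi DSS. For this protease all 6 high libraries were above all 6 low ones, and replicate 3 was the lowest of the control DSS libraries.

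Of the other enzymes, CG4267, of the lipase family, had 59, 56 and 32 in control sucrose, 116, 77 and 129 in control DSS, 113, 156 and 131 in trxRNAi sucrose and 69, 42 and 31 in trxRNAi DSS, with no overlap between the high and low groups. CG5065, a fatty acyl-CoA reductase (synonym FAR1), an enzyme class that makes fatty alcohols, had 39, 79 and 40 in control sucrose, 84, 65 and 198 in control DSS, 81, 48 and 150 in trxRNAi sucrose and 15, 15 and 11 in trxRNAi DSS. Its control groups overlapped, while its trxRNAi DSS libraries were below all others. CG9360, a short-chain dehydrogenase (FOHSDR), had 16, 23 and 10 in control sucrose, 47, 40 and 94 in control DSS, 53, 45 and 40 in trxRNAi sucrose and 22, 20 and 12 in trxRNAi DSS, again without overlap.

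Members with signalling, transport or cytoskeletal families were mostly large genes. CG42541, of the Ras-like small GTPase family, had 93, 106 and 94 in control sucrose, 214, 144 and 422 in control DSS, 167, 130 and 127 in trxRNAi sucrose and 48, 43 and 44 in trxRNAi DSS. The high and low groups did not overlap, and trxRNAi DSS was less than control sucrose in every library. CG34417, a calponin-homology protein related to smoothelins and the longest member protein (5182 residues), had 87, 101 and 163 in control sucrose, 139, 163 and 438 in control DSS, 330, 279 and 297 in trxRNAi sucrose and 158, 156 and 118 in trxRNAi DSS. In control its feeds overlapped, at 163 in both. CG43066, listed as Slc6a20 and so in the family of sodium-coupled transporters, had 23, 30 and 22 in control sucrose, 40, 32 and 111 in control DSS, 106, 68 and 64 in trxRNAi sucrose and 30, 15 and 37 in trxRNAi DSS. CG32547, a receptor of the rhodopsin class, had 43, 24 and 54 in control sucrose, 82, 60 and 219 in control DSS, 97, 98 and 101 in trxRNAi sucrose and 36, 24 and 43 in trxRNAi DSS. Of these members, CG42541 and CG32547 kept all 6 high libraries above all 6 low ones.

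CG2082, of the NDRG family, had 31, 63 and 57 in control sucrose, 77, 113 and 181 in control DSS, 239, 202 and 204 in trxRNAi sucrose and 70, 71 and 49 in trxRNAi DSS; it was higher in trxRNAi sucrose than in any control DSS library. CG12605, a zinc-finger protein related to Scratch, had 7, 11 and 13 in control sucrose, 24, 5 and 71 in control DSS, 22, 29 and 51 in trxRNAi sucrose and 8, 12 and 6 in trxRNAi DSS. The control DSS libraries of CG12605 spanned the control sucrose range, so its place among the members came from replicate 3. CG31633, an F-box protein (FBXL17), had 4, 2 and 2 in control sucrose, 4, 23 and 17 in control DSS, 25, 19 and 24 in trxRNAi sucrose and 5, 3 and 6 in trxRNAi DSS.

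**Figure D2:**
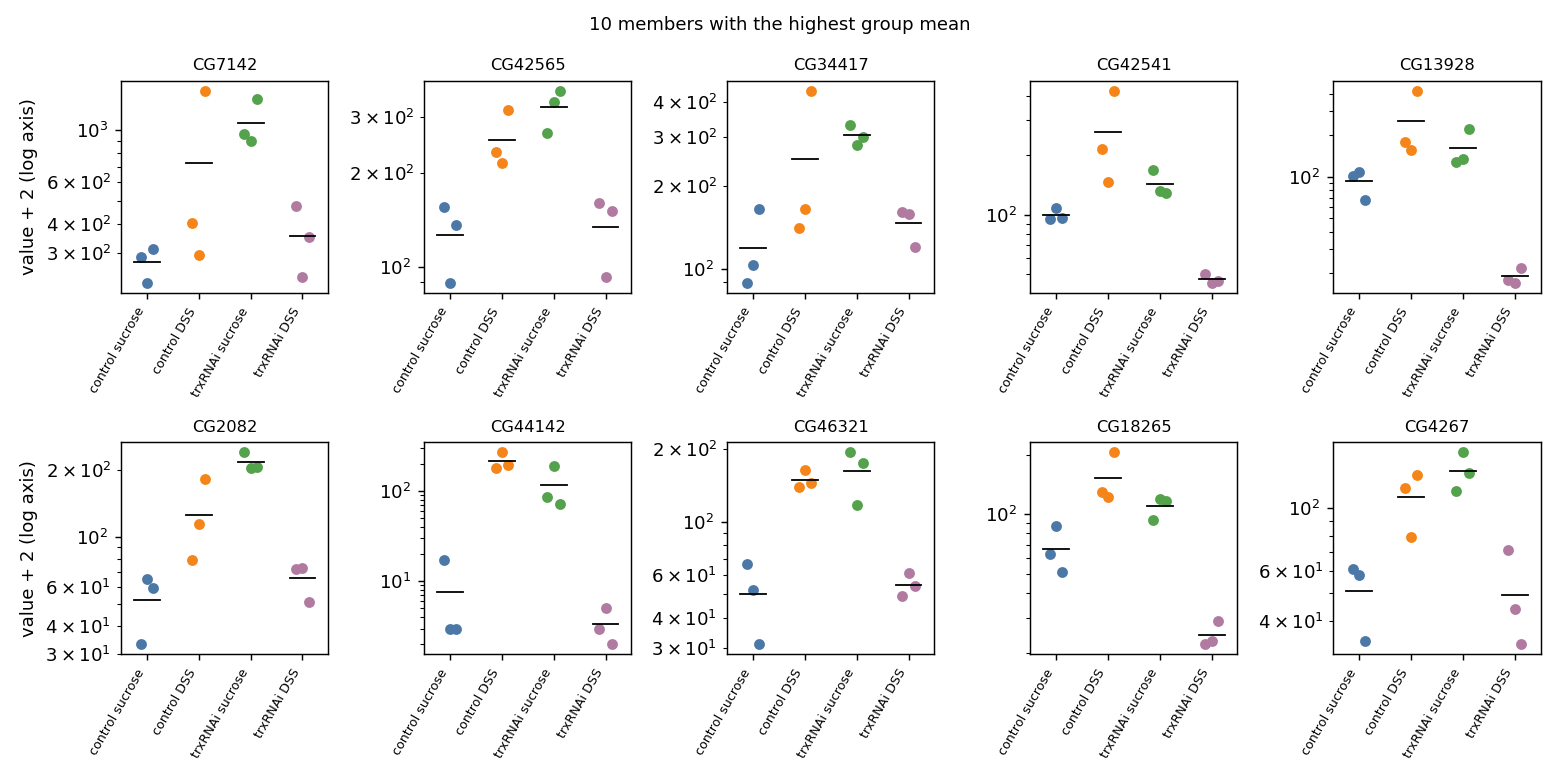
The 10 members with the highest group mean: points are libraries, horizontal lines group means, and the y axis of each panel is value + 2 on a log scale of its own. CG44142 and CG46321 show control DSS libraries close together, while in CG7142, CG34417, CG42541 and CG13928 control DSS replicate 3 stands above the other 2.

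Many members encode small proteins. A protein under 150 residues is annotated for 13 of the 49 members (26.5%), against 13.9% of the 2591 tested CG-numbered coding genes and 9.29% of the 7870 tested coding genes. The shortest is that of CG34211 with 50 residues, followed by CG43679 with 63, CG43117 with 75, CG43134 with 82 and CG44142 with 83. At the other end of size, 21 members (42.9%) have a gene over 10 kb, against 9.76% of tested CG-numbered coding genes. The median gene length was 5972 bp in members and 2097 bp in tested CG-numbered coding genes, and the median protein length 374 and 358 residues. On chromosome arms, 13 members lie on X, 8 on 2L, 11 on 2R, 9 on 3L and 8 on 3R. The X holds 26.5% of members and 18.4% of tested CG-numbered coding genes. These shares are a description of genes chosen by their values and carry no test.

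CG44142 had the largest feed differences of all members in both genotypes: 15, 1 and 1 in control sucrose, 177, 266 and 190 in control DSS, 84, 185 and 69 in trxRNAi sucrose and 1, 3 and 0 in trxRNAi DSS. CG34211 showed the same switch at a lower level, with 5, 2 and 0 in control sucrose, 63, 40 and 44 in control DSS, 93, 83 and 59 in trxRNAi sucrose and 1, 7 and 4 in trxRNAi DSS. In both, the lowest library of the high groups was more than 4 times the highest of the low groups. CG42565 (135 residues) was the small-protein member with the highest mean, at 154, 87 and 134 in control sucrose, 231, 213 and 315 in control DSS, 265, 334 and 363 in trxRNAi sucrose and 158, 91 and 149 in trxRNAi DSS. It lay just inside the limit, with a control difference of 1.01. CG43134 depended on 1 library, with 9, 15 and 2 in control sucrose, 15, 12 and 211 in control DSS, 4, 13 and 17 in trxRNAi sucrose and 1, 0 and 5 in trxRNAi DSS. The other 2 control DSS values lay within the control sucrose range.

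Several members were at 0 in a whole low group. CG12885, CG13135 and CG32198 had 0 in each of the 3 control sucrose libraries, and CG7191, CG13135 and CG32198 in all 3 trxRNAi DSS libraries. CG7191 had 43, 24 and 88 in control DSS and 17, 24 and 54 in trxRNAi sucrose, against 3, 0 and 0 in control sucrose. CG13135 (132 residues) had 24, 1 and 45 in control DSS and 6, 7 and 18 in trxRNAi sucrose. CG12885 had 30, 8 and 85 in control DSS, 17, 35 and 28 in trxRNAi sucrose and 8, 0 and 0 in trxRNAi DSS. No member was listed at 0 in a whole high group.

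The genotype effect averaged over both feeds is the contrast that the rule did not set directly. It asks whether a gene's mean level differed between trxRNAi and control. It would be independent of both feed differences only if the groups varied equally, and they did not: the median SD of log2 (value + 2) over tested members was 0.724 in control DSS, 0.554 in control sucrose, 0.392 in trxRNAi sucrose and 0.424 in trxRNAi DSS. Control DSS values thus entered both the choice of members and this contrast, so the calls below describe the fit across all genes and are not an independent test of the members. By limma with Benjamini-Hochberg adjustment over all 8399 tested genes, 4 of 48 tested members were lower in trxRNAi and 0 were higher. Over all tested genes 3.75% were called, 2.62% lower and 1.13% higher. At an unadjusted p under 0.05, 15 members were lower and 16 were called in all, beside 18.5% of all tested genes. The median difference over tested members was −0.20 on the log2 (value + 2) scale, beside 0.01 over all tested genes, with 30 below 0 and 18 above.

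CG13928, a single-exon gene for 245 residues at chr3L:1625791-1628377 (dm6, minus strand), had the smallest p of the members. Its libraries had 99, 107 and 66 in control sucrose, 177, 154 and 419 in control DSS, 126, 132 and 219 in trxRNAi sucrose and 16, 15 and 20 in trxRNAi DSS. The genotype average was −1.40 ± 0.24 (SE, 95% confidence interval −1.91 to −0.90, adjusted p = 0.00264, limma). Its trxRNAi DSS libraries were below all control libraries, while trxRNAi sucrose was above control sucrose. CG18265, with 1322 residues at chr3L:17439401-17457461, had 61, 85 and 49 in control sucrose, 127, 120 and 204 in control DSS, 91, 118 and 114 in trxRNAi sucrose and 20, 21 and 27 in trxRNAi DSS. Its genotype average was −0.93 ± 0.19 (SE) (adjusted p = 0.0105, limma).

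The other calls were less firm. CG42541, whose libraries are given above, had a genotype average of −0.91 ± 0.20 (SE) (adjusted p = 0.0176, limma), a call that ended without trxRNAi sucrose replicate 2 (0.0533) and with voom weights (0.0563). CG32204, at the floor of the rule, had 10, 5 and 2 in control sucrose, 12, 16 and 34 in control DSS, 3, 6 and 6 in trxRNAi sucrose and 1, 0 and 0 in trxRNAi DSS. Its genotype average was −1.60 ± 0.42 (SE) (adjusted p = 0.0402, limma), and the call ended in 11 of 19 alternatives, with an adjusted p of up to 0.105. Unlike the other called genes, CG32204 was not higher in trxRNAi sucrose than in control sucrose, where its values overlapped. The count and its direction depended on control DSS replicate 3. Without it, limma called 7 members, 4 lower and 3 higher in trxRNAi, beside 7.47% of all tested genes; CG32204 was not among them. CG43679 was then lower (log2 difference −1.38 ± 0.35 SE, adjusted p = 0.0221, limma), and the protease CG7142 was higher (0.98 ± 0.18, adjusted p = 0.00398), as were CG2082 (0.77) and CG34417 (0.66). With all libraries these 4 were not called, with adjusted p of 0.0775 for CG43679, 0.427 for CG7142, 0.127 for CG2082 and 0.419 for CG34417.

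The genotypes can also be set side by side within the high pair and within the low pair of groups, which share their libraries with the rule and are given without a test. Between the high groups, trxRNAi sucrose minus control DSS had a median of −0.18 over members (−0.003 over all tested genes) and ran from −1.63 to 1.69. It was below 0 in 32 members, beside 50.5% of all tested genes. Without control DSS replicate 3 the median was 0.09 and 20 members were below 0, so which of the high groups was higher depended on that library. The share of all tested genes below 0 was not taken without that library. Between the low groups, trxRNAi DSS minus control sucrose had a median of −0.22 (0.01 over all tested genes) and ran from −2.27 to 0.85. In 13 members trxRNAi DSS was lower by at least 1, and in 0 was it higher by that much; among all tested genes 5.12% were lower by at least 1.

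**Figure D3:**
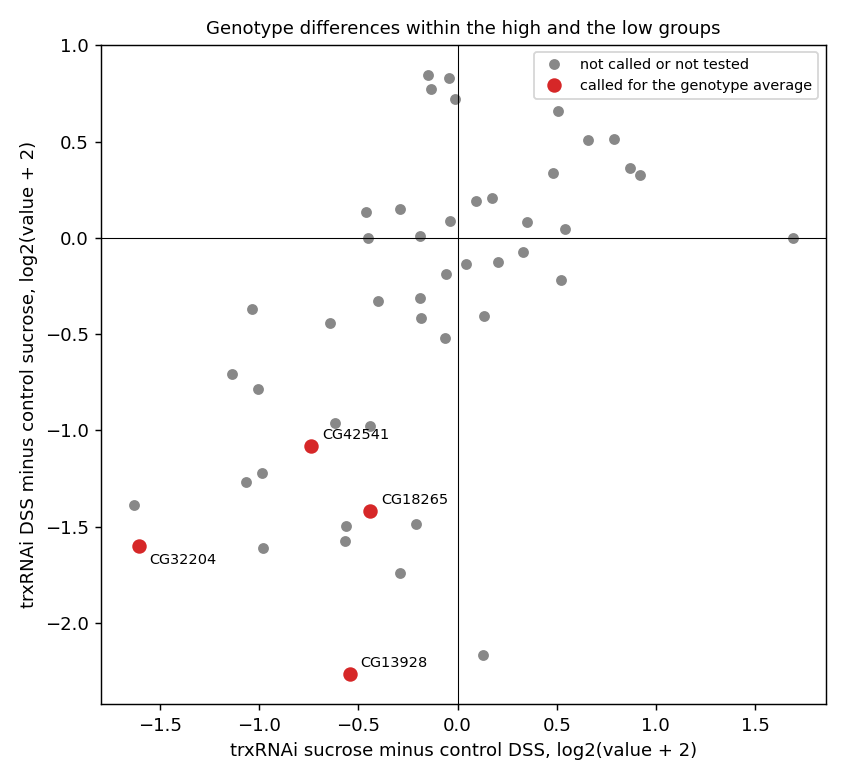
Each point is 1 of the 49 members; the x axis is trxRNAi sucrose minus control DSS and the y axis trxRNAi DSS minus control sucrose, both as differences of group means of log2 (value + 2). The 4 red points, called for the genotype average, lie at negative values on both axes.

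Control DSS replicate 3 stood apart for these genes. It was the highest of its group in 37 of 49 members (75.5%), against 38.8% of all tested genes, and no other library was highest in more than 40.8% of members. The values of all members summed to 6864 there (0.121% of the library) and to 3374 and 3245 in the other control DSS libraries, against 4072 to 4808 in trxRNAi sucrose, 1424 to 1646 in control sucrose and 1107 to 1498 in trxRNAi DSS. The value in replicate 3 was over 2 times the mean of the other 2 control DSS libraries in 24 members. The ratio had a median of 1.89 and ran from 0.40 in CG43679 to 13.7 in CG43134. The count of 24 was not set beside that over all tested genes. Genes high in any control DSS library are favoured by the rule, so these counts come in part from the choice of members.

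Marker sums also differed in that library. Enteroendocrine fate factors (8 genes) summed to 3953 in control DSS replicate 3 and to 2464 and 2310 in replicates 1 and 2, and stem cell and enteroblast markers to 3888 against 5893 and 6002. Neuronal genes (4) summed to 1604 against 1059 and 1172. The 12 enteroendocrine hormones summed to 18284 there, against 20196 and 17139 in replicates 1 and 2. That sum includes CCHa2, which had 4385 there against 1064 and 581. The other hormones together were therefore lower in replicate 3 than in replicates 1 and 2, although sNPF was higher (147 against 30 and 8). The part of these cell types in the members' values was not tested. Over the groups, fate factor sums were 1991 to 2179 in control sucrose, 2310 to 3953 in control DSS, 2789 to 3182 in trxRNAi sucrose and 1665 to 1912 in trxRNAi DSS, so they were higher in the groups where members were high. Much of this is pros. Without it the other 7 summed to 1524 to 1879, 1573 to 2083, 1901 to 2161 and 1561 to 1818 in the same groups. Control DSS then overlapped both low groups, while trxRNAi sucrose stayed above them. In control DSS replicate 3 the other 7 summed to 2083, against 1573 and 1757 in replicates 1 and 2. Ptx1 is also on this list and had the opposite pattern. Hormone sums followed genotype instead, at 16288 to 22774 in control sucrose and 17139 to 20196 in control DSS against 4582 to 5969 in trxRNAi sucrose and 3185 to 4280 in trxRNAi DSS.

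**Figure D4:**
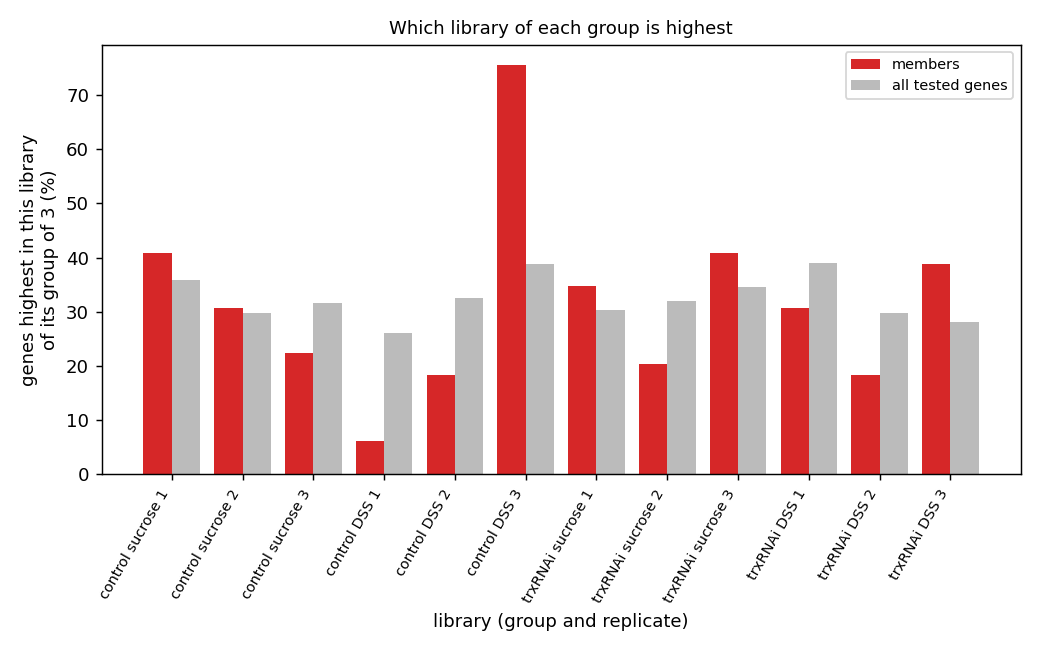
Bars, from 0, give for each library the percentage of genes whose highest value in their group of 3 libraries is there, for the 49 members (red) and for all tested genes (grey). Control DSS replicate 3 holds 75.5% of members and 38.8% of tested genes.

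Applied without control DSS replicate 3, the rule kept 24 members and lost 25, and 2 other genes joined. Of the 24 kept, 16 had all 6 high libraries above all 6 low ones, and of the 25 lost, 12. The kept members include CG44142, CG46321, CG12912, CG43679, CG34211, CG30371, CG9360, CG7191, CG12885 and CG31633, and 8 of them have a protein under 150 residues. Those lost include CG7142, CG42565, CG34417, CG42541, CG13928, CG2082, CG18265, CG4267, CG32547 and CG5065. Of the 10 members with the highest mean, 8 were lost. The median protein length was 252.5 residues in the kept and 619 in the lost members. Since the ratio of that library helped to divide them, these differences are a description only.

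The rule favours genes that are high in any control DSS library, so deviations shared in control DSS replicate 3 come in part from the choice of members, and their co-variation is a description. With group means removed, the median Pearson correlation over 1128 pairs of the 48 tested members was 0.196 across the 12 libraries, with 67.3% of pairs above 0 and 22.5% above 0.5. Over all pairs of tested genes the median was −0.001, with 49.9% above 0 and 11.6% above 0.5. The points share libraries and depth, and without control DSS replicate 3 the median over members was 0.068. Single members ranged widely in their correlation with the mean of the others: it was 0.904 for CG13928, 0.885 for CG43134, 0.857 for CG15199, 0.817 for CG10910 and 0.815 for CG7142, but −0.431 for CG13108 and −0.635 for CG6040. CG6040 had 36, 56 and 22 in control DSS, lowest in replicate 3, where CG10910 had 46, 52 and 180. Among the kept members the median pairwise correlation was 0.094 and among the lost 0.440. Kept and lost members were divided by control DSS replicate 3, so this difference comes in part from the division.

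Some members are neighbours of each other or of genes with the same pattern. CG5937 and CG5921, the latter a protein related to harmonin, a scaffold with PDZ domains, lie 446 bp apart on the plus strand of X, at chrX:6040005-6050381 and chrX:6050828-6065646. CG5937 had 66, 61 and 29 in control sucrose, 62, 77 and 192 in control DSS, 85, 49 and 59 in trxRNAi sucrose and 39, 18 and 20 in trxRNAi DSS. CG5921 was lower throughout, with 9, 10 and 4 in control sucrose, 12, 20 and 40 in control DSS, 17, 13 and 12 in trxRNAi sucrose and 3, 0 and 1 in trxRNAi DSS. Their correlation over 12 libraries was 0.956, and 0.946 with group means removed.

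CG46321 and CG12912, on 2R, share 22504 bp on the same strand and both overlap Hr3, a nuclear hormone receptor gene. CG46321 had 65, 50 and 29 in control sucrose, 137, 161 and 142 in control DSS, 192, 115 and 172 in trxRNAi sucrose and 47, 59 and 52 in trxRNAi DSS. CG12912 had 62, 39 and 29 in control sucrose, 118, 125 and 103 in control DSS, 140, 94 and 107 in trxRNAi sucrose and 39, 51 and 43 in trxRNAi DSS. Hr3 itself had the pattern, with means of 55.33, 144.7, 138.7 and 50 in control sucrose, control DSS, trxRNAi sucrose and trxRNAi DSS. The correlation of CG46321 with CG12912 was 0.987, and 0.910 within groups. The sources used here do not give how the authors' counting shared reads among overlapping genes, so these 3 genes cannot be counted as separate observations.

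Members also lie near 3 of the left-out genes. CG44142 lies 5802 bp from CG45080 on 3R, with a correlation of 0.968 over 12 libraries and 0.712 within groups. CG34211 lies 2481 bp from CG34212 on 2R, on the opposite strand, with 0.899 and 0.691. CG43679 lies 1572 bp from CG43680 on 3L, with 0.830 and 0.047. CG43679, which lies inside Sytbeta on the same strand, had 51, 23 and 10 in control sucrose, 103, 178 and 55 in control DSS, 50, 64 and 32 in trxRNAi sucrose and 7, 7 and 12 in trxRNAi DSS. Sytbeta had group means of 41.67, 44.67, 18.33 and 9.0 in the same order of groups. The left-out neighbours were far higher: in control DSS CG45080 had a mean of 7231, CG34212 of 2374 and CG43680 of 535.7, against 211, 49.0 and 112 for CG44142, CG34211 and CG43679; these 3′ tag values were not set per length, since 1 tag stands for 1 transcript.

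**Figure D5:**
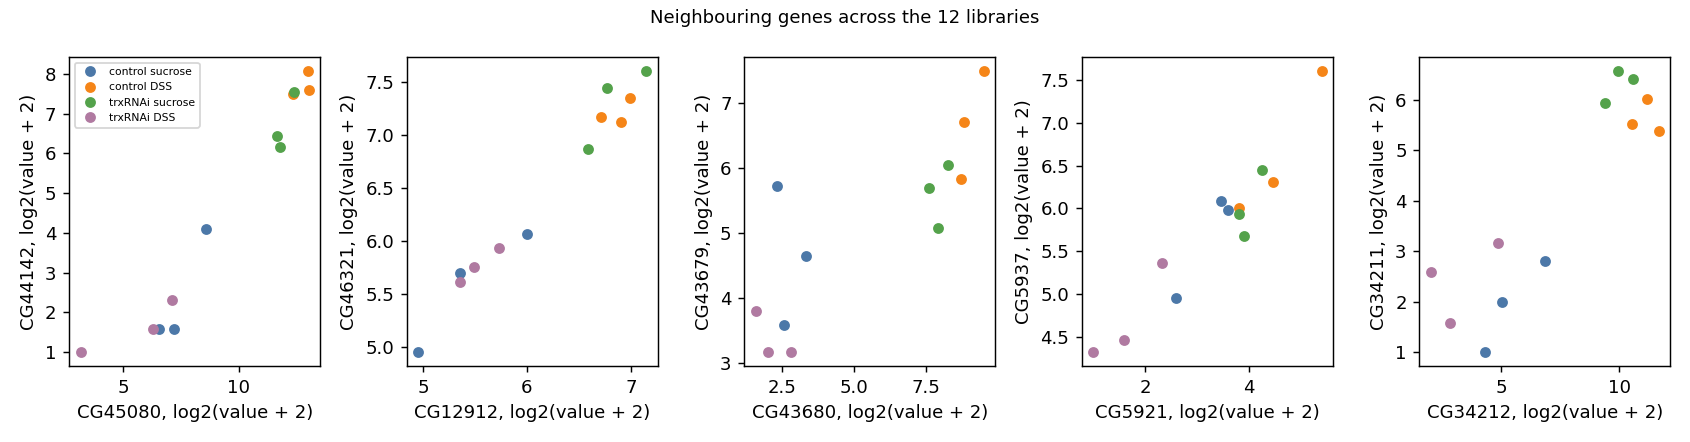
Each panel plots log2 (value + 2) of a member (y axis) against its neighbour (x axis) in the 12 libraries, coloured by group. Correlations over the libraries are between 0.83 for CG43679 with CG43680 and 0.987 for CG46321 with CG12912.

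Overlap with other genes limits more members. Of the 49, 25 overlap another gene in the files, 12 of them on the same strand and 18 on the opposite strand. CG42565 overlaps CG13511 on the same strand, whose group means were 149.3, 287.0, 367.3 and 161.7, and CG13510, with 659.7, 1104, 1088 and 669.0, in the order given above. CG44815 (119 residues) lies in mgl, a lipoprotein receptor gene with means of 997.0, 1924, 1678 and 847.7. The small gene had 8, 13 and 5 in control sucrose, 36, 37 and 29 in control DSS, 40, 20 and 17 in trxRNAi sucrose and 7, 9 and 12 in trxRNAi DSS. On the opposite strand the partner could differ in direction: CG18011, of the zinc-finger class, had 2, 0 and 0 in control sucrose, 13, 28 and 13 in control DSS, 32, 20 and 24 in trxRNAi sucrose and 1, 1 and 5 in trxRNAi DSS, while KCNQ, a potassium channel gene that overlaps it, had means of 39.33, 13.67, 12.67 and 43.67. CG7781 had means of 8.67, 37.0, 16.3 and 1.33, while its opposite-strand partner strat had 218.0, 106.7, 91.33 and 217.0. The use of strand in the counting is not given in the sources used here.

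Outside the CG-numbered genes, the profile most like the members' mean log2 (value + 2) over 12 libraries was that of CCHa2, a peptide hormone gene (Pearson r = 0.977). It had 186, 163 and 145 in control sucrose, 1064, 581 and 4385 in control DSS, 804, 779 and 1960 in trxRNAi sucrose and 55, 74 and 82 in trxRNAi DSS. Next were Ank2, an ankyrin of neurons (0.977, group means 1.67, 17.3, 14.3 and 0.667), and sfl, a heparan sulfate N-deacetylase/N-sulfotransferase (0.973, means 70.0, 114.7, 105.0 and 56.0). Frq1, a frequenin-type calcium sensor, had 0.973 with means of 8.33, 66.0, 49.7 and 6.33, and sphinx1, a non-catalytic serine protease homologue, 0.971 with 0.0, 31.7, 28.7 and 0.0. Among the control DSS libraries, CCHa2, Ank2, sfl, Frq1 and sphinx1 were each highest in replicate 3, as most members were. The correlation includes the group means that chose the members.

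Of all 17617 genes, 1.12% had the pattern. Under the same limits on group means, 4 of 8 enteroendocrine fate factors (phyl, mirr, pros and sc), 2 of 12 enteroendocrine hormones (sNPF and CCHa2), 2 of 6 stem cell and enteroblast markers (mira and spdo), 1 of 4 neuronal genes (fne) and 1 of 10 peritrophic matrix and chitin genes (Cht4) met them. Of 16 enterocyte markers, 8 regional transcription factors, 10 visceral muscle genes, 8 hemocyte genes, 2 tracheal genes and 6 fat body and ovary genes, 0 met them. The regional factors cad, exex, lab and Ptx1 had the opposite pattern. For the genotype average, limma called 7 of 10 tested hormones lower (adjusted p under 0.05), beside 2.62% of all tested genes. It also called lower 2 of 8 fate factors, 2 of 8 regional factors and 2 of 16 enterocyte markers. Ptx1 is on the fate factor and the regional list and is counted in both. Called lower as well were 2 of 4 neuronal genes and 1 of 7 visceral muscle genes. Limma called 0 of 6 stem cell and enteroblast markers and 0 of 5 peritrophic matrix and chitin genes. It also called 0 of 1 hemocyte gene, 1 tracheal gene and 2 fat body and ovary genes, with 0 called higher in any list.

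The fate factor gene pros had group means of 403.3, 1105, 1043 and 101.3, and mira, which encodes an adaptor for asymmetric division, 540.3, 1175, 737.7 and 245.3, in control sucrose, control DSS, trxRNAi sucrose and trxRNAi DSS. The left-out genes had the same high and low groups, further apart than for pros and mira: CG16826, for example, had means of 212.0, 8956, 4381 and 65.3. For 5 of the 6 left-out genes control DSS was above trxRNAi sucrose, and for CG13947 it was below (594.7 and 776.3).

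The limits of the rule cut through a continuous range. Just inside lay CG7991, with differences of 1.0 in control and −1.0 in trxRNAi, exactly at both limits, and means of 12.0, 26.0, 22.0 and 10.0, then CG42565 (1.01 and −1.26) and CG32647 (1.81 and −1.02). Just outside lay CG15210 (1.28 and −0.97), CG5618 (0.96 and −1.31) and CG15211 (0.94 and −1.66). CG7991 had 10, 5 and 21 in control sucrose against 26, 19 and 33 in control DSS, which overlap, so membership at this edge was less than the spread between libraries.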

How the data were processed

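RNA from sorted cells was sequenced from 3′ ends in 12 libraries, and titles gave the groups and replicate numbers. Per the submitters' processing notes the build was dm6 and the aligners named are HISAT2 and Bowtie2; versions, roles, the counter, annotation and strand setting are not given in the sources at hand. The deposited values were treated as a score. As estimated from the values themselves, read counts of each library were multiplied by the authors by 1 factor (0.826 to 1.329) and rounded. This sets typical genes level, so total RNA per cell cannot be compared. The factor of 1.329, for control DSS replicate 2, had the poorest fit (deviance 642.9, against at most 136.0 in the other libraries). No 2 libraries were identical.

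All 12 libraries entered 1 linear model of log2 (value + 2) with a mean per group (limma 3.58.1 with trend and robust variance, statmod 1.5.0, R 4.3.3), on 8399 genes with at least 10 in at least 3 libraries, with Benjamini-Hochberg adjustment over all of them and a threshold of 0.05. The pseudocount of 2 understates differences of low genes. Group means and SDs are of the deposited values, n = 3.

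Symbols (17520 of 17617 matched, 97 not), positions and protein lengths came from the Ensembl 115 annotation of dm6 and synonyms from RefSeq. Members and gene lists were chosen with earlier results of these data known. Values in every library are given for the 10 members with the highest group mean and those called for the genotype average. They are also given for those within 20 kb of another member and for some with a named family. Family names came from RefSeq synonyms or general knowledge, as no domain annotation was at hand. Further members were named after their values were seen, as were Sytbeta, Hr3 and other overlapping genes. Other genes named are the 5 most alike in profile, those at the limits, the left-out genes, trx and Ptx1. Alternatives were pseudocounts of 1 and 5, rescaling by median of ratios or to the mean total, no filter, voom weights, a replicate block, means of log2 values, a highest group mean of at least 50 and each library left out in turn. The markers Dl, hdc, brush, dys and tal were not analysed here, nor were protein or promoter sequences.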

Additional observations from a re-analysis of the deposited data

How the results depend on the processing

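Of 19 alternatives for the count of members called for the genotype average (4 with all settings as reported), 16 stayed within 1.5 times; voom weights gave 2 (245 genes called in all, against 315), and leaving out 1 library gave 2 to 7, with 2 without trxRNAi sucrose replicate 2 (185 genes) and 7 without control DSS replicate 3 (627 genes). CG13928 and CG18265 were called in all 19, with adjusted p of at most 0.0434 and 0.0387. The number of members was 27 with a highest group mean of at least 50, and 26 to 64 with 1 library left out, 26 without control DSS replicate 3 (24 of them shared) and 64 without control DSS replicate 2. Some counts without control DSS replicate 3 were chosen after the data were seen. Then 20 members had trxRNAi sucrose below control DSS (32 with it). In 22 the highest mean was in control DSS (32 with it). All remaining high libraries stood above all 6 low ones in 28, and control groups were apart in 37, both as with it. Leaving out a high library cannot lower the counts of 28 and 37, so these say nothing about dependence on that library. The median difference of the high groups ran from −0.383 to 0.092 and that of the low groups from −0.269 to −0.013 (shifts under the SD of 0.354 between libraries), and the median correlation within groups from 0.068 to 0.222. Replicate numbers were not treated as pairs: 7 of 18 same-number pairs had a correlation above 0.1 (−0.20 to 0.276). Pairs of different numbers were not compared, so this does not settle whether the libraries were paired. With the replicate block 6 members were called (397 genes in all), CG10947 and CG43679 in addition, and the median correlation was 0.188. Low values limit the precision: 22 members had no group mean of 50 or more. The causes of these shifts were not tested.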
